A study of Homo sapiens with 6 samples.

Results

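The genes described here encode the machinery that makes ribosomes in the nucleolus. They are 38 protein-coding genes of ribosome biogenesis, chosen by name with earlier results of these data known. They were matched by symbol to the 61806 genes of the deposited table. All 38 were found once each, and all 38 passed the filter on low counts that left 15687 genes tested. RNA-seq of poly(A) RNA was performed on HCT116, a human colorectal carcinoma cell line grown in McCoy's 5A medium. The control group, si-NC, was 3 libraries of cells labelled wildtype and given a control short interfering RNA. The other group, si-STRIP2, was 3 libraries of cells labelled as a STRIP2 knockdown. The labels give neither the sequence nor the number of the interfering RNAs, nor the time after transfection. Separate cultures are not stated either, so the p-values measure only the spread between these libraries, which may be technical.

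Ribosome synthesis starts when RNA polymerase I transcribes the repeated ribosomal DNA into a long precursor RNA. Small nucleolar ribonucleoproteins (snoRNPs) then guide its chemical modification, and large assemblies of processing factors fold and cut it into the precursors of the small and the large subunit. The nucleolus is the compartment in which these steps take place. Growing cancer cells devote much of their transcription to it, and many of its genes are known targets of growth-promoting factors that bind the E-box word CACGTG.

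The knockdown was incomplete. STRIP2 had FPKM values (counts scaled to exonic length and to the total of the library) of 3.19, 3.77 and 3.81 in si-NC and of 2.71, 2.53 and 2.58 in si-STRIP2, so that 72.6% of the control level remained (log2 fold change -0.46, with SE, the standard error of the fit, 0.083, and edgeR adjusted p = 1.62e-05). Total counts were 17184963 to 21721218 per library. These 38 genes, called members in the plots, held 152 to 41172 counts in a library, with NOP2 lowest and NPM1 highest, so depth limited the precision of NOP2 more than that of the others. Of the epithelial markers EPCAM, CDH1, KRT8, KRT18, KRT19, KRT20, CDX1, CDX2 and VIL1, 7 of 9 passed the filter, CDX1 was at 0 counts in every library and VIL1 was under 0.1 FPKM. Their summed level was 691.1 to 721 FPKM in si-NC and 668 to 691.3 FPKM in si-STRIP2, with 2 of them higher and 4 lower by the edgeR test. Markers of leukocytes summed to at most 0.43 FPKM in any library, those of endothelium to at most 0.46 and those of fibroblasts to at most 2.68, nearly all of it COL1A1. The endothelial sum was 0.37 to 0.46 FPKM in si-NC and 0.16 to 0.23 in si-STRIP2, mostly KDR. The share of mitochondrial counts was 4.88% to 8.88% in si-NC and 5.73% to 6.30% in si-STRIP2. The part of these values in the results below was not tested.

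Most of the ribosome biogenesis genes were higher in si-STRIP2 cells, by modest amounts. Of the 38 genes, 26 rose, 2 fell and 10 did not pass the test (edgeR quasi-likelihood test, Benjamini-Hochberg adjusted p under 0.05 over all genes tested). Over all 15687 tested genes, 27.8% rose and 27.0% fell. Among the 9196 tested genes with a mean level at or above that of the lowest member, NOP2 (2.49 FPKM), 34.6% rose and 31.5% fell. The median log2 fold change was 0.27 for the members and 0.014 for all tested genes. TCOF1 rose most, by 1.9-fold, followed by NPM1 (1.60-fold), BOP1 (1.51-fold) and RRP1 (1.45-fold). The genes that fell were DDX21, to 81.8% of its control level, and WDR43, to 80.9%. Without si-NC replicate 3, 4 genes fell, as RRN3 and PNO1 then passed as well. In bulk RNA, more RNA per cell and more of the cells that carry it cannot be told apart, and these values are shares of the counted RNA, not amounts per cell.

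The FPKM ranges of the 2 groups did not overlap for 25 genes that were higher and 2 that were lower in si-STRIP2, where the background over all tested genes was 30.0% higher and 28.7% lower. The called gene whose ranges overlapped was UTP4. Summed over the 38 genes, the level was 1353, 1386 and 1312 FPKM in si-NC and 1649, 1679 and 1638 FPKM in si-STRIP2, a ratio of 1.23 between the group means. The genes took 0.697% ± 0.0221 of all counts in si-NC, against 0.887% ± 0.00999 in the knockdown group (SD, n = 3). Abundant genes weighed on the sum, and without NPM1, NCL and FBL the ratio was 1.13.

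**Figure D1:**
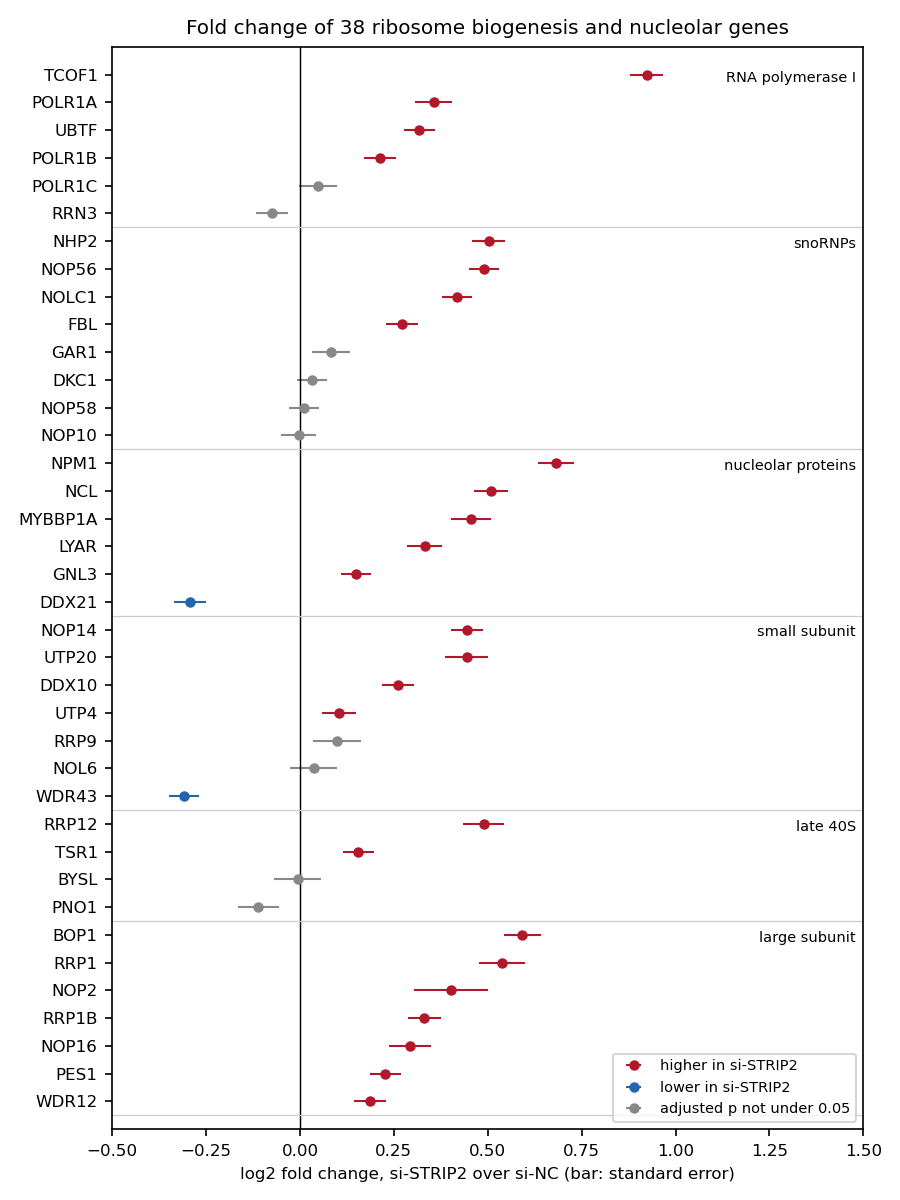
Log2 fold change of each of the 38 genes (x axis, si-STRIP2 over si-NC, bars are standard errors of the edgeR fit), grouped by step of ribosome synthesis. The 26 red points passed the test on the higher side, the 2 blue points (DDX21 and WDR43) on the lower side, and the 10 grey points did not pass.

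Promoter sequences are shown because many of these genes share a word next to their start. RefSeq promoter windows (GRCh38.p14, 250 bases before to 50 after an annotated start) were matched by symbol for 32 of the 38 genes, 8 of which had more than 1 window. TCOF1, NOP58, NOLC1, RRP12, BOP1 and RRP1B were not among them. The palindromic word CACGTG occurred in a window of 17 of the 32 genes (53.1%), against 12.3% of 11074 tested genes with a window and 8.77% of 27305 genes in the table. Of its 18 occurrences, 7 lay before the annotated start of their window. The stretches below run from 100 bases before to 50 after the start, in the direction of transcription, with CACGTG in capitals. They show the word in genes that fell (WDR43 and DDX21), in genes that rose (MYBBP1A, NOP14 and FBL) and in genes that did not pass the test (BYSL and NOL6), and its absence from NCL and NPM1, which are abundant genes that rose. DDX21 and NPM1 have 2 windows each. For NPM1 the one at the start of the deposited gene span is shown. For DDX21 the one with the word is shown, and its start lies inside the deposited gene span. The DDX21 window at the start of that span does not hold the word.
WDR43, chr2:28894567-28894716, plus strand: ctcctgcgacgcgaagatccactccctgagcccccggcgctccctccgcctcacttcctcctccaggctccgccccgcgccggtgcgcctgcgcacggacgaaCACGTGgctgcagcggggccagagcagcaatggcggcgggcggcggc
DDX21, chr10:68956547-68956696, plus strand: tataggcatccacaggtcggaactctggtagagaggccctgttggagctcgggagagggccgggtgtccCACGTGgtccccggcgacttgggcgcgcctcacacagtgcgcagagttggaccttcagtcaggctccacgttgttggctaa
MYBBP1A, chr17:4555335-4555484, minus strand: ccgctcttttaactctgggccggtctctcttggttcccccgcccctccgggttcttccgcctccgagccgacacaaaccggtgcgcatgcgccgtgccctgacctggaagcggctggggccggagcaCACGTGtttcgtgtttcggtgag
NOP14, chr4:2963357-2963506, minus strand: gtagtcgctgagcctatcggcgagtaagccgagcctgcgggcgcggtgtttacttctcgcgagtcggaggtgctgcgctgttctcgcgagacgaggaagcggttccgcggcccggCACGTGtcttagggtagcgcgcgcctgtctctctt
FBL, chr19:39846330-39846479, minus strand: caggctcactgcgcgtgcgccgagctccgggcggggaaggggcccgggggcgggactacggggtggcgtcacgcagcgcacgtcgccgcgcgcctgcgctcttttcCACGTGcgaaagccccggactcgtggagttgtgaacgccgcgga
BYSL, chr6:41921399-41921548, plus strand: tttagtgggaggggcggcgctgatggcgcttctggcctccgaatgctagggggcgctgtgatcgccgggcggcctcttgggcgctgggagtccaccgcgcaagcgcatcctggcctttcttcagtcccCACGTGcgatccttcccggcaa
NOL6, chr9:33473875-33474024, minus strand: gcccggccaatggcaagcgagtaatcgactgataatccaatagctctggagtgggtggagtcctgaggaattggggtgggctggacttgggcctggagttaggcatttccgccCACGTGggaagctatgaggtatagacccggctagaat
NCL, chr2:231464435-231464584, minus strand: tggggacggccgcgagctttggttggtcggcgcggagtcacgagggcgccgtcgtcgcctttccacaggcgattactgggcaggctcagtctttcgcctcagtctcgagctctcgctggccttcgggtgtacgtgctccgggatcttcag
NPM1, chr5:171387016-171387165, plus strand: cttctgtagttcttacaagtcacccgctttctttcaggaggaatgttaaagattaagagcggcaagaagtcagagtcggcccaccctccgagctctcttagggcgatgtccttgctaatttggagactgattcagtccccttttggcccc

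The word began 3 bases after the start in WDR43, 6 in FBL, 13 in NOL6, 15 in NOP14, 27 in MYBBP1A and 28 in BYSL. In DDX21 it began 31 bases before the start of the window shown, a position inside the deposited gene span. Genes with the word did not share a direction. Of the 17 genes with it, 9 rose, 2 fell and 6 did not pass, with a median log2 fold change of 0.10. Of the 15 matched genes without it, 12 rose, 0 fell and 3 did not pass, with a median of 0.29. TCOF1, NOP58, NOLC1, RRP12, BOP1 and RRP1B had no window and are in neither group. All of these except NOP58 rose, so either median could differ with them. Over all tested genes with a window, 32.1% rose and 27.7% fell with the word, 29.3% rose and 28.9% fell without it, and the medians were 0.028 and 0.0061. These are descriptions, and the difference between the medians was not tested. The other words searched on both strands were GGGCGG, in 25 of the 32 genes (78.1%, against 76.7% of tested genes), TATAAA in 1 (3.12% against 8.48%), GCGCATGC in 3 (9.38% against 6.25%) and AAGATGGC in 1 (3.12% against 6.36%). A match of letters is not a binding site, and a missing match says only that the letters are not in the window.

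RNA polymerase I and the factors that start it were mostly higher. TCOF1 (ENSG00000070814, chromosome 5, 150357629 to 150400308, plus strand) encodes treacle, a nucleolar phosphoprotein that supports transcription of ribosomal DNA and is mutated in Treacher Collins syndrome. Its FPKM was 6.44, 6.82 and 6.71 in si-NC and 12.2, 13.3 and 12.4 in si-STRIP2. Every si-STRIP2 library lay above every si-NC library, and the means were 6.66 ± 0.196 and 12.6 ± 0.590 (SD, n = 3). The log2 fold change of 0.92 (standard error 0.044, edgeR adjusted p = 2.69e-18) was the largest of the 38 genes.

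POLR1A, the largest catalytic subunit of RNA polymerase I, had 4.32, 5.15 and 4.54 FPKM in si-NC and 5.88, 6.23 and 5.81 in si-STRIP2 (log2 fold change 0.36, SE 0.049, edgeR adjusted p = 1.41e-07). POLR1B, which forms the active site together with POLR1A, went from 10.1 ± 0.0781 to 11.7 ± 0.312 FPKM (SD, n = 3; log2 fold change 0.21, edgeR adjusted p = 6.78e-05). UBTF, the factor that coats active ribosomal DNA, had 17.1, 18.03 and 17.0 FPKM in si-NC and 22.0, 21.8 and 21.2 in si-STRIP2 (log2 fold change 0.32, edgeR adjusted p = 3.84e-08). For all 3 genes the groups did not overlap.

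The other 2 genes of this step did not pass the test. POLR1C, a subunit that RNA polymerase I shares with RNA polymerase III, had 8.97, 8.68 and 9.24 FPKM in si-NC and 9.34, 9.14 and 9.36 in si-STRIP2 (edgeR adjusted p = 0.451). Genes on the opposite strand, XPO5 among them at 216% of its counts, cover 18.2% of its exonic bases, and how strand was handled in the counting is not given in the sources used here, so its value is uncertain. RRN3, which bridges the polymerase to the promoter, had 43.9, 44.8 and 41.1 FPKM in si-NC and 39.3, 42.4 and 41.9 in si-STRIP2, with overlapping groups (log2 fold change -0.074, edgeR adjusted p = 0.145). Without si-NC replicate 3, RRN3 passed on the lower side (log2 fold change -0.11, edgeR adjusted p = 0.0228). Its 4 annotated pseudogenes held 7.21% as many counts. The span of PDXDC1 overlaps that of RRN3, but 0% of the exonic bases of RRN3 are shared on either strand.

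In each kind of snoRNP, some genes rose and others did not pass the test. Of 8 snoRNP genes, 4 rose and 0 fell. Of all tested genes at or above the mean level of NOP2, 34.6% rose and 31.5% fell. With so few genes the counts are a description. The C/D snoRNP, which methylates the ribose of precursor RNA, is built from NOP56, NOP58 and the methyltransferase fibrillarin (FBL) on guide RNAs. NOP56 (ENSG00000101361, chromosome 20, 2652593 to 2658393, plus strand) had 58.7, 60.1 and 61.3 FPKM in si-NC and 88.3, 81.8 and 83.5 in si-STRIP2 (log2 fold change 0.49, SE 0.040, edgeR adjusted p = 2.27e-12). The groups of NOP56 lay far apart. Its paralog and partner NOP58 had 70.1, 73.6 and 68.0 FPKM in si-NC and 70.2, 71.3 and 72.02 in si-STRIP2 (log2 fold change 0.0098, SE 0.040, edgeR adjusted p = 0.855). The groups of NOP58 overlapped, and its fold change was at or near 0 in each fit of this comparison, from -0.018 to 0.031. FBL rose from 133 ± 5.83 to 160.4 ± 8.60 FPKM (SD, n = 3; log2 fold change 0.27, edgeR adjusted p = 1.68e-06).

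The H/ACA snoRNP, which converts uridine to pseudouridine, consists of the synthase dyskerin (DKC1) with NHP2, NOP10 and GAR1. NHP2 had 43.3, 44.5 and 42.5 FPKM in si-NC and 62.5, 62.8 and 59.8 in si-STRIP2 (log2 fold change 0.50, SE 0.044, edgeR adjusted p = 1.10e-11). It was the only one of the 4 that passed, with groups that did not overlap. Beside the 34.6% of tested genes at that level that rose, this count is a description. The opposite-strand gene RMND5B covers 27.4% of the exonic bases of NHP2 and held 27.2% as many counts, so the value of NHP2 is uncertain. DKC1 had 22.0, 22.2 and 21.3 FPKM in si-NC and 22.1, 22.8 and 22.1 in si-STRIP2 (edgeR adjusted p = 0.519). NOP10 was at 47.5 ± 1.67 and 47.6 ± 1.88 FPKM and GAR1 at 33.0 ± 2.54 and 35.1 ± 0.604 FPKM (SD, n = 3; edgeR adjusted p = 0.954 and 0.166), with overlapping groups for each. GAR1 passed on the higher side without si-NC replicate 1 (log2 fold change 0.14, edgeR adjusted p = 0.0330). NOLC1, a phosphoprotein that accompanies both kinds of particle, rose from 92.0 ± 1.92 to 123 ± 2.37 FPKM (SD, n = 3; log2 fold change 0.42, edgeR adjusted p = 9.77e-11).

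Partner genes were compared within each library as a log2 ratio of FPKM, for 7 pairs chosen after their values were seen. The ratio of NOP56 to NOP58 was -0.26, -0.29 and -0.15 in si-NC and 0.33, 0.20 and 0.21 in si-STRIP2, so that NOP58 had the higher FPKM in each si-NC library and NOP56 in each si-STRIP2 library. The ratio of NHP2 to NOP10 went from -0.13 ± 0.078 to 0.38 ± 0.085 (SD, n = 3). The ratio of BOP1 to WDR12 went from 0.075 ± 0.17 to 0.48 ± 0.063, that of TCOF1 to NOLC1 from -3.79 to -3.29, and that of RRP1 to RRP1B from -1.32 to -1.11. The ratio of NPM1 to DDX21 differed most, by 0.98, and that of TCOF1 to POLR1C by 0.87. The groups did not overlap for any of the 7 pairs, but the pairs were chosen because their partners differed. An exact permutation test gave p = 0.1 for each pair, the smallest value that 3 against 3 libraries allow, so it cannot decide. These ratios are a description.

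**Figure D2:**
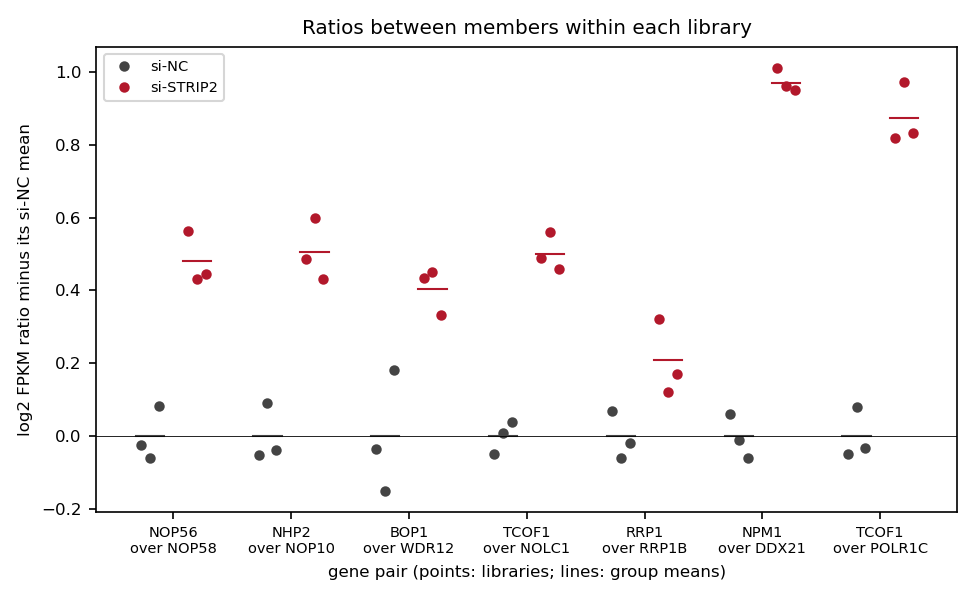
Log2 FPKM ratio of 7 gene pairs in each library (y axis, minus the mean of the si-NC libraries), with points for libraries and lines for group means. The si-STRIP2 points lie above the si-NC points in each pair, by 0.48 on average for NOP56 over NOP58 and by 0.98 for NPM1 over DDX21.

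All 6 genes of multifunctional nucleolar proteins passed the test, 5 on the higher and 1 on the lower side, where 54.8% of all tested genes passed in either direction. NPM1 (ENSG00000181163, chromosome 5, 171387116 to 171411810, plus strand) encodes nucleophosmin, a histone and ribosome chaperone of the outer nucleolus. Its FPKM was 167, 173 and 155 in si-NC and 264, 264 and 268 in si-STRIP2. The lowest si-STRIP2 library was far above the highest si-NC library (log2 fold change 0.68, SE 0.048, edgeR adjusted p = 4.71e-14). Its 49 annotated pseudogenes held 2.29% as many counts. NCL, the gene of nucleolin, which binds precursor RNA and chromatin, had 127, 132 and 122 FPKM in si-NC and 180.2, 187 and 176 in si-STRIP2 (log2 fold change 0.51, SE 0.046, edgeR adjusted p = 1.81e-11).

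MYBBP1A, a nucleolar protein linked to transcription control, rose from 7.72 ± 0.551 to 10.6 ± 0.439 FPKM (SD, n = 3; log2 fold change 0.45, edgeR adjusted p = 5.66e-09). LYAR, a nucleolar zinc finger protein, rose from 26.6 ± 0.980 to 33.6 ± 0.444 FPKM (log2 fold change 0.33, edgeR adjusted p = 1.72e-07). GNL3, or nucleostemin, a GTP-binding protein of the nucleolus, had 65.2, 66.2 and 64.8 FPKM in si-NC and 71.1, 73.3 and 73.6 in si-STRIP2. This change of GNL3 was small, and the groups did not overlap (log2 fold change 0.15, SE 0.039, edgeR adjusted p = 0.00162). The spans of other genes, PBRM1 among them, overlap that of GNL3, but only 3.68% of its exonic bases are shared on its own strand and 0.151% on the other.

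DDX21 (ENSG00000165732, chromosome 10, 68956135 to 68985068, plus strand), an RNA helicase that takes part in both transcription and processing of precursor RNA, went the other way. Its FPKM was 61.2, 66.3 and 61.8 in si-NC and 50.03, 52.0 and 52.9 in si-STRIP2. None of the si-STRIP2 libraries reached the lowest si-NC library (log2 fold change -0.29, SE 0.043, edgeR adjusted p = 4.79e-07). No gene of the table overlaps DDX21, and none is named as its pseudogene.

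**Figure D3:**
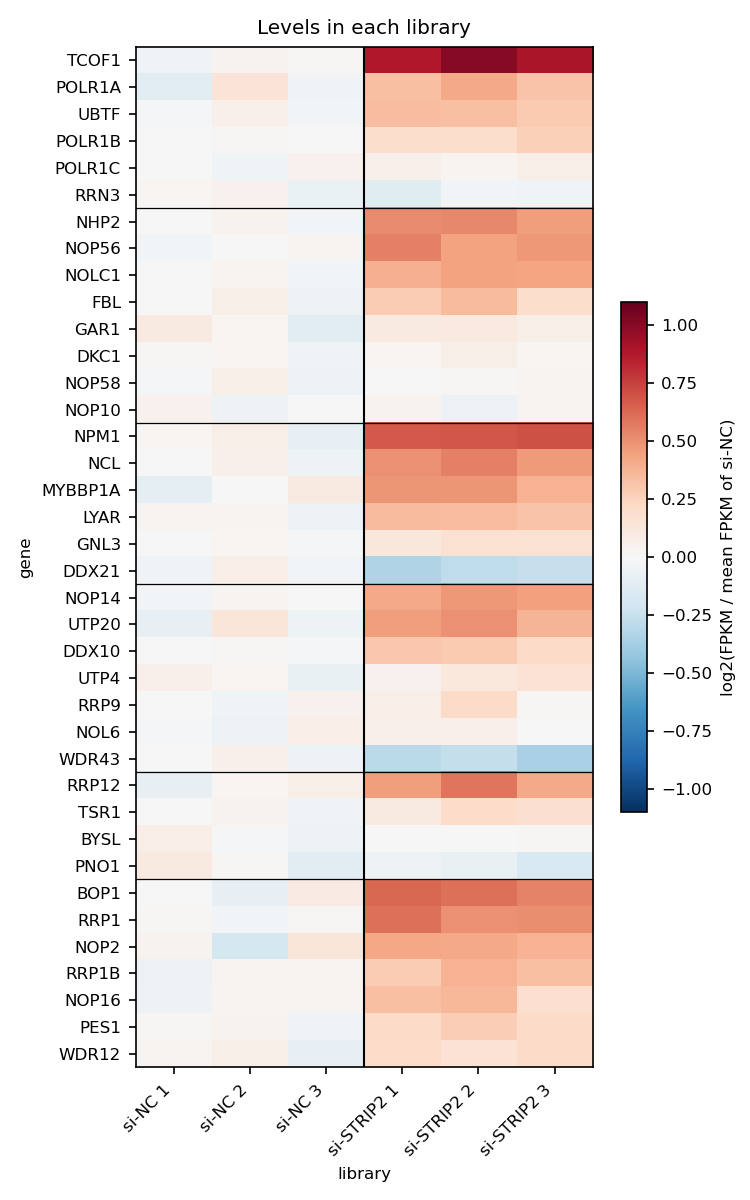
Level of each gene (rows) in each library (columns), as log2 of FPKM over the mean FPKM of the si-NC libraries, with lines between steps of ribosome synthesis. The 3 si-STRIP2 columns resemble one another, TCOF1 is the darkest red row, and DDX21 and WDR43 are the darkest blue rows, with PNO1 and RRN3 paler.

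Genes of the small subunit processome, the particle that assembles on the first part of the precursor RNA, moved in both directions. Of 7 genes, 4 rose, 1 fell and 2 did not pass. Of all tested genes at or above the mean level of NOP2, 34.6% rose and 31.5% fell. With so few genes the counts are a description. NOP14 had 22.8, 23.8 and 23.3 FPKM in si-NC and 31.03, 32.5 and 31.9 in si-STRIP2 (log2 fold change 0.44, SE 0.043, edgeR adjusted p = 7.62e-11). UTP20, a long helical-repeat scaffold protein, rose from 3.67 ± 0.309 to 4.99 ± 0.233 FPKM (SD, n = 3; log2 fold change 0.44, edgeR adjusted p = 5.39e-08). DDX10, an RNA helicase, rose from 4.35 ± 0.0569 to 5.23 ± 0.161 FPKM (log2 fold change 0.26, edgeR adjusted p = 3.94e-06). An antisense gene, NOP14-AS1, covers 17.1% of the exonic bases of NOP14 and held 12.2% as many counts, so the value of NOP14 is uncertain.

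WDR43 (ENSG00000163811, chromosome 2, 28894667 to 28948219, plus strand) and UTP4 encode subunits of the same early subcomplex, which binds the precursor RNA while it is being transcribed. WDR43 had 64.5, 67.5 and 62.4 FPKM in si-NC and 52.6, 54.1 and 50.5 in si-STRIP2. The highest si-STRIP2 library of WDR43 was below the lowest si-NC library (log2 fold change -0.31, SE 0.041, edgeR adjusted p = 7.03e-08). UTP4 had 22.9, 22.5 and 20.9 FPKM in si-NC and 22.8, 24.0 and 24.7 in si-STRIP2, with overlapping groups (log2 fold change 0.10, SE 0.045, edgeR adjusted p = 0.0486). Its call held in 5 of 17 alternatives, over which the adjusted p ranged from 0.0140 to 1, and was lost among others under DESeq2 (adjusted p = 0.123). The spans of other genes, SNTB2 among them, overlap that of UTP4, with 1.23% of its exonic bases shared on the opposite strand. RRP9, a protein of the U3 particle, was at 21.1 ± 0.660 and 22.6 ± 1.62 FPKM, and NOL6, another processome subunit, at 5.34 ± 0.268 and 5.49 ± 0.104 FPKM (SD, n = 3; edgeR adjusted p = 0.188 and 0.642).

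Of the 4 genes that act later on the small subunit precursor, 2 rose and 2 did not pass. These counts are a description too, beside the 34.6% of tested genes at that level that rose and the 31.5% that fell. RRP12, needed for export of the precursors, had 4.64, 5.02 and 5.19 FPKM in si-NC and 6.79, 7.43 and 6.60 in si-STRIP2 (log2 fold change 0.49, SE 0.055, edgeR adjusted p = 2.52e-09). TSR1, a GTPase-like factor of the late particle, rose from 28.4 ± 0.791 to 31.7 ± 1.12 FPKM (SD, n = 3; log2 fold change 0.16, edgeR adjusted p = 0.00205). Genes on the opposite strand, SRR among them at 9.94% of the counts of TSR1, cover 20.7% of its exonic bases, so this small change is uncertain. BYSL, the gene of bystin, had 17.3, 16.4 and 15.8 FPKM in si-NC and 16.4, 16.5 and 16.6 in si-STRIP2, with overlapping groups (edgeR adjusted p = 0.943). PNO1, which helps place the nuclease at the end of the small subunit RNA, had 23.1, 21.7 and 19.7 FPKM in si-NC and 20.6, 20.3 and 19.1 in si-STRIP2 (log2 fold change -0.11, edgeR adjusted p = 0.0824). Without si-NC replicate 3, in which PNO1 was lowest among the control libraries, PNO1 passed on the lower side (log2 fold change -0.17, edgeR adjusted p = 0.0067).

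Each of the 7 genes of large subunit assembly rose, with a median log2 fold change of 0.33 and no overlap between groups for any of them. Over all tested genes, 27.8% rose, and for 30.0% the si-STRIP2 group lay above the si-NC group without overlap. Of tested genes at or above the mean level of NOP2, 34.6% rose. The values of NOP16 and NOP2 are uncertain, as described below. BOP1, PES1 and WDR12 form the PeBoW complex, which acts on the precursor of the large subunit RNA. BOP1 had 13.5, 12.7 and 14.4 FPKM in si-NC and 21.0, 20.6 and 19.7 in si-STRIP2 (log2 fold change 0.59, SE 0.050, edgeR adjusted p = 3.40e-12). PES1 had 25.03, 25.5 and 24.1 FPKM in si-NC and 28.8, 29.9 and 28.8 in si-STRIP2 (log2 fold change 0.23, edgeR adjusted p = 2.01e-05). WDR12 had 13.1, 13.4 and 12.03 FPKM in si-NC and 14.8, 14.3 and 14.9 in si-STRIP2 (log2 fold change 0.19, edgeR adjusted p = 0.000419). All 3 subunits thus rose, BOP1 by 1.51-fold and WDR12 by 1.14-fold. Other genes overlap 2.26% of the exonic bases of WDR12 on the opposite strand.

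RRP1 and RRP1B are paralogs on chromosome 21, RRP1 at 43789513 to 43805293 and RRP1B at 43659560 to 43696079, both on the plus strand. RRP1 had 6.12, 5.97 and 6.15 FPKM in si-NC and 9.24, 8.62 and 8.66 in si-STRIP2 (log2 fold change 0.54, SE 0.062, edgeR adjusted p = 4.94e-09). RRP1B rose from 15.2 ± 0.558 to 19.1 ± 0.665 FPKM (SD, n = 3; log2 fold change 0.33, edgeR adjusted p = 8.83e-08). NOP16 rose from 13.02 ± 0.436 to 16.0 ± 1.06 FPKM (log2 fold change 0.29, edgeR adjusted p = 5.04e-05). Genes on the opposite strand, HIGD2A among them at 78.4% of the counts of NOP16, cover 20% of its exonic bases, so this change is uncertain. NOP2, a methyltransferase of large subunit RNA, had 2.2, 1.87 and 2.35 FPKM in si-NC and 2.87, 2.86 and 2.79 in si-STRIP2 (log2 fold change 0.40, SE 0.098, edgeR adjusted p = 0.000782). The level of NOP2 is uncertain, since 54.4% of its exonic bases lie in exons of another gene on the same strand, which was given 0.157% as many counts, and how reads on both genes were counted is not given in the sources used here.

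Levels between genes can be compared only per exonic base, and the deposited size counts all annotated exons of a gene. That size was longer than the longest GENCODE 29 transcript for 35 of the 38 genes, by a median of 1.54 times, so their levels are set lower than a transcript-length scale would set them. The largest ratio was 4.73, for NPM1. On the deposited scale the 38 genes ran from a mean of 2.49 FPKM (NOP2) to 215 FPKM (NPM1), with a median of 22.0 FPKM, against 3.68 FPKM for all tested genes. Some of the genes also carry snoRNAs in their introns. By position, 8 of them held 26 annotated small nucleolar or Cajal body RNAs on their own strand, 5 in NOP56 and 6 in GNL3, but these drew only 102 counts in si-NC and 112 in si-STRIP2 in all and 0 of them passed the filter. The libraries were of poly(A) RNA, and how reads in overlapping exons were counted is not given in the sources used here; the part of either in these low counts was not tested. Ribosomal RNA was not analysed here.

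Other genes of the pathway were also mostly higher. Beyond the 38 genes, 132 other ribosome biogenesis genes were listed by their known roles. This list, like the 38 genes, was chosen with earlier results of these data known, so it is not an independent check. Of the 132 genes, 91 rose, 12 fell and 29 did not pass, with a median log2 fold change of 0.23. The background was the same 27.8% higher and 27.0% lower. Of these genes, 113 had a promoter window, and 28 of those (24.8%) held CACGTG. With the word, 21 rose and 1 fell, with a median of 0.27, and without it 60 rose and 8 fell, with a median of 0.25.

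By step, 11 of 16 other RNA polymerase I genes rose and 1 fell. POLR1E rose from 15.3 ± 0.774 to 25.3 ± 0.952 FPKM (SD, n = 3; log2 fold change 0.72, edgeR adjusted p = 1.29e-13) and TAF1C, of the promoter selectivity factor, by 0.48 on the log2 scale (edgeR adjusted p = 4.58e-07). POLR2K, a subunit common to the nuclear RNA polymerases, was the one that fell, from 73.0 ± 1.84 to 63.8 ± 2.54 FPKM (log2 fold change -0.20, edgeR adjusted p = 0.000198). Of 11 other snoRNP genes, 8 rose and 1 fell. RUVBL2, an ATPase that helps assemble C/D particles, rose by 0.58 and SHQ1, a chaperone of dyskerin, by 0.32, while ZNHIT6 had a log2 fold change of -0.19 (edgeR adjusted p = 4.52e-14, 4.53e-05 and 0.000424).

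Of 45 other small subunit genes, 32 rose and 6 fell. NAT10, an RNA acetyltransferase, rose from 12.7 ± 0.108 to 22.4 ± 0.590 FPKM (SD, n = 3; log2 fold change 0.82, edgeR adjusted p = 2.87e-17) and NOC4L rose by 0.58. The largest falls were those of FCF1 (-0.28) and KRR1 (-0.26), with edgeR adjusted p-values of 1.56e-06 and 1.45e-06. Of 45 other large subunit genes, 30 rose and 4 fell, the falls being 2 when si-NC replicate 1 was left out and 2 when si-STRIP2 replicate 1 was left out. The partners NOC2L and NOC3L rose by 0.76 and 0.70 on the log2 scale (edgeR adjusted p = 4.21e-17 and 1.27e-14), whereas MAK16 (-0.19) and RPF1 (-0.15) were lower, the latter with overlapping FPKM ranges. RPF1 lost its call when si-STRIP2 replicate 1 was left out (edgeR adjusted p = 0.0581). Of 15 genes of the RNA exosome and associated nucleases, 10 rose and 0 fell by the edgeR test. The rises were led by EXOSC3 (log2 fold change 0.62, edgeR adjusted p = 1.38e-10) and EXOSC10 (0.38, edgeR adjusted p = 2.48e-09), a nuclear catalytic subunit.

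**Figure D4:**
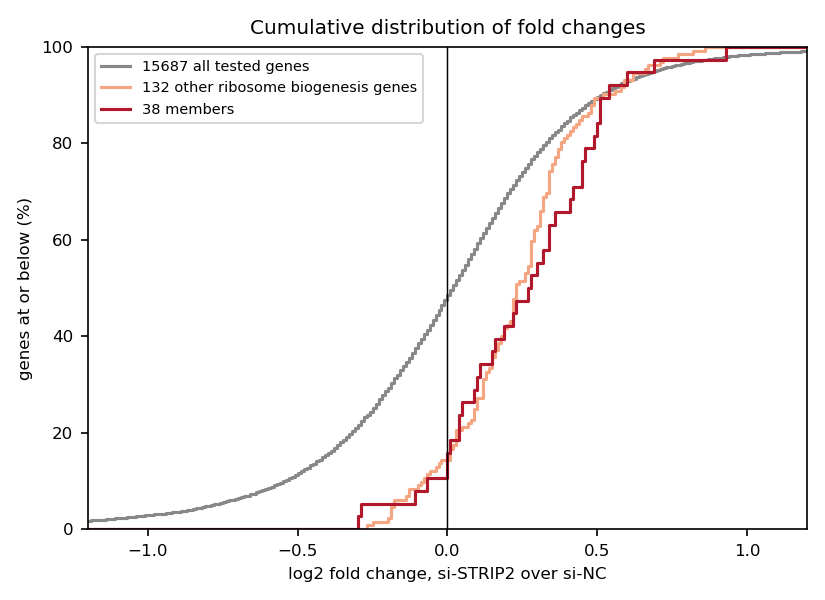
Cumulative distribution of log2 fold changes (x axis, si-STRIP2 over si-NC) for the 38 genes, the 132 other ribosome biogenesis genes and all 15687 tested genes (y axis, percent of genes at or below). The medians lie at 0.27, 0.23 and 0.014.

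The deposited annotation assigns genes to broader terms. Of 143 tested genes under rRNA processing, 90 rose and 13 fell, with a median log2 fold change of 0.22. Without the 38 genes and the 132 listed ones, 43 of the remaining 80 rose and 6 fell, with a median of 0.19. Of 871 tested genes under nucleolus, 402 rose and 171 fell, with a median of 0.13. Without the members and lists, 306 of 737 rose and 160 fell (41.5% and 21.7%), with a median of 0.098. The pathway term Ribosome biogenesis in eukaryotes held 11 of the 38 genes, and 55 of its 123 tested genes rose and 24 fell. Its 79 tested genes outside the lists had 24 rises and 19 falls, near the background.

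The changes were small for many genes. Of the 28 called genes, 7 differed by less than 1.2-fold. In a test against a 1.2-fold change by edgeR's glmTreat, 13 of the 38 genes were called higher and 0 lower. In the same test, 1780 of all 15687 tested genes were called higher and 1943 lower. The calls of DDX21 (glmTreat adjusted p = 0.268) and WDR43 (glmTreat adjusted p = 0.149) thus do not hold for a change beyond that size. The 13 genes were TCOF1, POLR1A, NOP56, NHP2, NOLC1, NPM1, NCL, MYBBP1A, NOP14, UTP20, RRP12, BOP1 and RRP1, which passed in each of the 17 alternatives.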

How the data were processed

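Poly(A) RNA was sequenced from 6 libraries, 3 per group. The authors deposited raw counts per gene and FPKM values per gene for each library; the FPKM differed from a recomputation from the counts, exonic size and library total by at most 0.005. The submitters' processing notes name bcl2fastq 2.20.0.422, FastQC 0.10.1, cutadapt 1.9.1, HISAT2 2.2.1, HTSeq 0.6.1 and build GRCh38.p13, with no roles; the annotation release and how strand was handled are not given in the sources used here. The deposited exonic size per gene, another value of the table, was used as given.

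Counts were tested in R 4.3.3 with edgeR 4.0.16 (filterByExpr with a minimum count of 10, TMM scaling, quasi-likelihood F test, group as the only term, 2-sided), with Benjamini-Hochberg adjustment over 15687 genes and a threshold of 0.05. Standard errors are the absolute log2 fold change over the square root of F. Alternatives used DESeq2 1.42.0, limma 3.58.1, other scalings and filters, each library left out, a replicate block, a robust fit and a 1.2-fold limit. The script was tested on simulated data with 50 changed genes per size, drawn from all tested genes. It recovered 46% of 1.25-fold, 76% of 1.5-fold, 88% of 2-fold and 98% of 3-fold changes, and 4 of 158 calls were false. The shares for the members may differ, and a gene that did not pass may hold a small change.

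The members and lists were chosen with earlier results of these data known. All 38 members are named; of each of 5 other lists, up to 2 called rises and 2 falls with a mean of at least 5 FPKM in a group are named. Coordinates are those of the deposited table, which matched 13 of 38 spans of GENCODE 29. Promoters are from RefSeq (GRCh38.p14); 34 of 40 windows ended inside a GENCODE 29 transcript of the gene on its strand. Protein sequences were not used here, so the protein comparisons that had been planned were left out.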

Additional observations from a re-analysis of the deposited data

How the results depend on the processing

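Results were recomputed under 17 alternatives. Of the 28 called genes, 13 kept their call in every one, and 14 lost it only in the test against a 1.2-fold change, the other being UTP4. Of the 10 genes not called, 7 passed in none, and GAR1, RRN3 and PNO1 passed in 1 or 2. The test against a 1.2-fold change gave 13 members higher and 0 lower, 33 and 0 of the other 132 genes, and 1780 and 1943 of all tested genes, fewer by construction. Of the named genes outside the 38, POLR2K, SHQ1, ZNHIT6, KRR1, FCF1, MAK16 and RPF1 lost their calls in that test, and RPF1 also without si-STRIP2 replicate 1 and in both limma fits (adjusted p = 0.0519 and 0.0532), in which the other large subunit genes called lower were 2. The number of members called lower was 4 with a filter of 1 FPKM, where RRN3 and PNO1 joined DDX21 and WDR43. Leaving out each library in turn gave 2 to 4 members lower, the 4 without si-NC replicate 3, and a median log2 fold change of 0.24 to 0.29. The ratio of summed FPKM was 1.13 without the 3 highest members, an alternative chosen after seeing the data. Genes near 0 changed sign without a call: NOP58 to -0.0087 with the 1 FPKM filter, NOP10 to 0.00029 with column totals and 0.0010 with limma on log2(FPKM + 1) and on log2(FPKM + 0.1), and BYSL to 0.0018 and 0.0019 with those limma fits. With each library left out, the log2 fold change ranged from -0.018 to 0.031 for NOP58, from -0.039 to 0.029 for NOP10, from -0.0034 to 0.071 for NOL6 and from -0.040 to 0.038 for BYSL. The cause of these sign changes was not tested.

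Replicate numbers are shared by the groups, but same-numbered libraries did not deviate together (correlations of -0.086, -0.013 and -0.072 across genes). With the replicate block, 25 members were higher and 2 lower, and 4196 and 4097 of all genes; UTP4 lost its call (adjusted p = 0.0739) and no other member's call changed.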
